A study of Mus musculus with 6 samples.

Results

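Muscle, liver, neurons and the pancreas each carry miRNAs that are abundant in their own cells and scarce in most others. miR-1, the miR-133 pair and miR-206 belong to skeletal and heart muscle, miR-208 to the heart, miR-122 to hepatocytes, miR-124 to neurons, miR-375 to pancreatic islets, and miR-216a and miR-217 to the exocrine pancreas. A miRNA guides a silencing complex to mRNAs that pair with its seed, a short stretch near the 5′ end, and so lowers the output of those mRNAs. Blood monocytes are known for other miRNAs, such as miR-223 and miR-142, and are not a known main source of the tissue miRNAs listed here. These miRNAs were read for detection in both monocyte subsets of mouse blood.

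Assays were chosen by name. Of the 10 names, 9 had a mouse (mmu) assay, and because mmu-miR-217 had an assay on each of the 2 cards, there were 10 assays among 750 miRNA assays. Card A, the first one listed, held 9 of them and card B held 1. The samples were monocytes freshly isolated from 3 mice of the DBA/1 strain, each mouse giving 1 Ly6C high (classical, inflammatory) and 1 Ly6C low (non-classical, patrolling) sample, which makes 6 samples and 3 per subset. The age and sex of the mice and the sort are not given in the sources used here, and the meaning of the treatment that the design text alludes to was not given either. Each sample used 10 ng of total RNA on a TaqMan low-density array, a set of cards in which each well returns the threshold cycle (Ct) of 1 assay. A Ct lower by 1 cycle means 1 log2 unit more template. An assay was called detected when its Ct was under 35, and reactions without signal are listed at 40.

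Samples are named here by subset and mouse. On card A, the sample Ly6C high mouse 1 stood apart from the rest. Across the 127 assays of this card with a Ct under 35 in at least 3 samples, Spearman correlations of its Ct values with the 5 other samples were 0.10 to 0.15, against 0.73 to 0.94 among those 5. On card B, samples of different mice were also unlike each other. Across its 74 assays that passed the same limit, they correlated at −0.20 to 0.35, whereas both samples of a mouse correlated at 0.90, 0.79 and 0.80 in mice 1, 2 and 3. These 74 assays, which do not include miR-217, thus differed by mouse, and 74 of the 201 assays tested between the subsets are from this card. All these correlations are across assays, which are not independent replicates. Of 12 miRNAs of myeloid and other blood cells on card A, all 12 were detected in each of the other 5 samples, whereas 6 were detected in Ly6C high mouse 1. The median Ct of the 12 was 24.46 and 20.98 in the Ly6C high monocytes of mice 2 and 3, and 19.97, 19.97 and 22.48 in the Ly6C low samples of mice 1, 2 and 3. It was 33.98 in Ly6C high mouse 1, where miR-223, miR-142-3p, miR-142-5p, miR-16, miR-191 and miR-155 were not detected. The monocyte miRNAs miR-223, miR-142-3p and miR-142-5p were thus detected in 5 samples and not in Ly6C high mouse 1. The 6 of the list that were detected there were miR-19b, miR-21, miR-24, miR-26a, miR-30c and miR-146a. As the 12 are not all myeloid or confined to blood, the list as a whole does not mark monocytes or blood cells. Detected card A values of the tissue miRNAs in Ly6C high mouse 1 are named as from this deviating card. Tests between the subsets include this sample unless it is said to be left out. Where 3 Ly6C high values of other card A assays or controls are listed, the first is from the deviating card.

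Outside card A of Ly6C high mouse 1, the tissue miRNAs that were detected had late signals. The share of tissue assays detected per sample lay on both sides of that of all 750 assays, as given below. Of the 60 reactions of the 10 assays, 15 had a Ct under 35, or 12 when card A of Ly6C high mouse 1 was set aside. None of the 10 was detected in all 6 samples, 3 were detected in 3 or more, 1 in 2, 3 in 1 and 3 in none. Over all assays, 40.8% of card A and 54.4% of card B were detected in none, and 10.7% and 5.07% in all 6. Of all 750, 201 were detected in 3 or more. In the 12 reactions, Ct lay between 31.97 and 34.97, which is 8.31 to 14.2 cycles after the U6 small nuclear RNA of the same card. In each of them, between 80.8% and 97.9% of the assays detected on the same card of the same sample had an earlier signal. Of the 15 detected Ct values, 14 were whole numbers to within 0.05 cycles, so small differences between samples are read in steps of about 1 cycle. This was not particular to the tissue miRNAs. For example, miR-192 was at 30.96 and 28.98 in Ly6C high mice 2 and 3. The share over all assays was not counted. In these bulk samples, a few cells with much of a miRNA and many cells with little of it cannot be told apart.

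**Figure D1:**
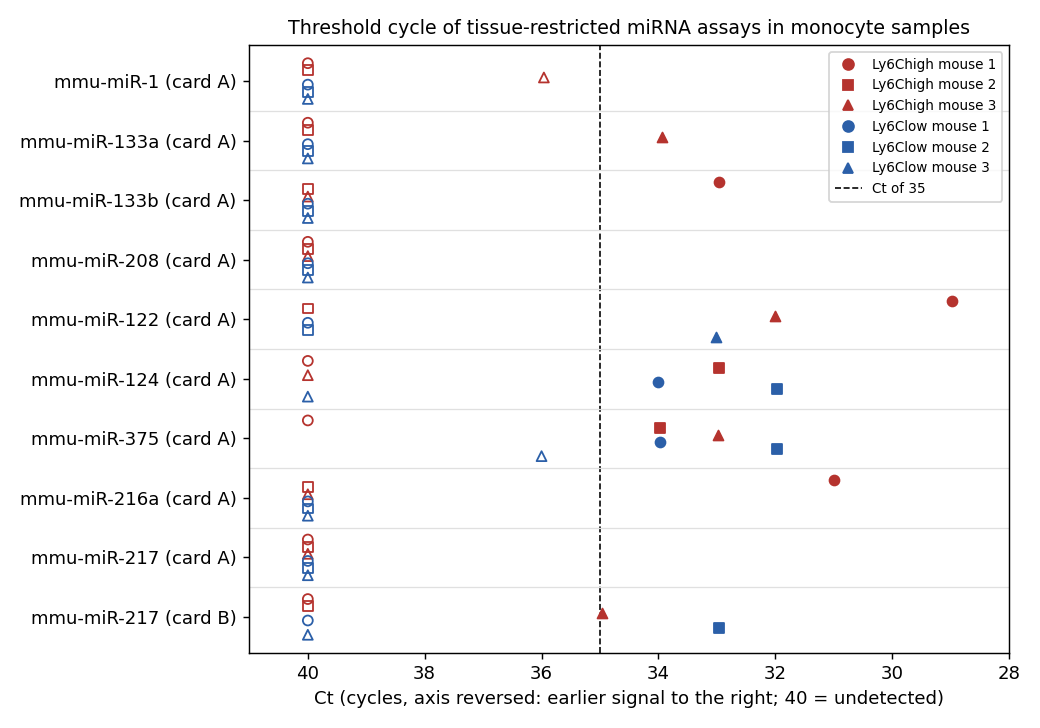
Ct of each tissue miRNA assay (rows) in the 6 samples, with the axis in cycles reversed so that earlier signals lie to the right. Red marks Ly6C high and blue Ly6C low samples, circles, squares and triangles mark mice 1, 2 and 3, filled symbols are under the dashed line at 35, and open symbols at 40 had no signal. The earliest signal, 28.98 for miR-122, and those of miR-216a and miR-133b are from card A of Ly6C high mouse 1 (red circles).

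The muscle miRNAs were almost without signal. For mmu-miR-1, which promotes muscle differentiation, the Ct was 35.96 in Ly6C high mouse 3 and 40 in the other 5 samples, so it was detected in 0 of 6. mmu-miR-133a, made from the same precursor transcripts as miR-1, had a Ct of 33.94 in that same sample and 40 in the other 5. Both partners of this pair thus had their 1 signal in the same sample, late in each case. For mmu-miR-133b, a close relative made next to miR-206, the 1 signal was a Ct of 32.97 on the deviating card A of Ly6C high mouse 1. mmu-miR-208, encoded within a cardiac myosin gene, had no signal in any sample. Without the deviating card, 1 of the 4 muscle assays was therefore detected in 1 sample.

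Most assays related to the muscle miRNAs but outside the name rule also had little or no signal. The human-named assay hsa-miR-206 on card B had no signal in the 6 samples. This does not show that miR-206 was absent, because hsa-miR-223 on card B was also at 40 in all 6, while the card A assay of miR-223 had early signals in 5 of them. The rat-named assay rno-miR-1 and the passenger strand assays rno-miR-1# and mmu-miR-133a# had none either. mmu-miR-499, the third of the miRNAs hosted by myosin genes, also stayed at 40 in the 6 samples. mmu-miR-208b was at 34.04 on the deviating card of Ly6C high mouse 1 and at 40 in the other 5. An early signal was listed for mmu-miR-1-2-AS on card B, an assay named for the antisense strand of a miR-1 gene, with a Ct of 29.99 in Ly6C high mouse 2, 26.98 in Ly6C low mouse 2 and no signal in mice 1 and 3. It was named after its values were seen. Of the 375 assays on card B, 44 (11.7%) were likewise detected in both samples of mouse 2 and in no other.

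mmu-miR-122, the most abundant miRNA of hepatocytes, was detected in both samples of mouse 3, at a Ct of 32 in Ly6C high and 33.01 in Ly6C low monocytes. It had no signal in either sample of mouse 2 or in Ly6C low mouse 1. On the deviating card A of Ly6C high mouse 1, its Ct was 28.98, the lowest of the 15 detected values and close to the median of 29.00 of the assays detected on that card. In mouse 3, relative to U6, its ΔCt (the Ct minus that of U6) was 11.23 in Ly6C high and 11.09 in Ly6C low monocytes. Their log2 difference was −0.14. In raw Ct the signal came about 1 cycle earlier in Ly6C high monocytes, while U6 alone gives −1.15 in that mouse. The card A assays detected in both samples of mouse 3 had a median log2 difference of 0.83.

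mmu-miR-124, a miRNA of neurons that has also been studied in microglia and macrophages, was detected in both samples of mouse 2, at a Ct of 32.97 in Ly6C high and 31.97 in Ly6C low monocytes. It also had a signal at 34.01 in Ly6C low mouse 1, and none in the other 3 samples. The samples with miR-124 and those with miR-122 were complementary, if the deviating card of Ly6C high mouse 1, which had miR-122, is counted. Elsewhere, miR-122 was detected in mouse 3 only, and miR-124 in mouse 2 and Ly6C low mouse 1. Relative to U6, miR-124 was higher in Ly6C high mouse 2 by a log2 difference of 2.90, although its Ct was 1 cycle later there. The U6 Ct in that mouse was 24.66 in Ly6C high and 20.76 in Ly6C low monocytes, and an assay without any signal would get a difference of 3.89 in that mouse from U6 alone. The assay of the other strand, hsa-miR-124# on card B, had a Ct of 32.98 in Ly6C high mouse 3, 33.45 in Ly6C low mouse 1 and 31.98 in Ly6C low mouse 2. It was at 35.01 in Ly6C low mouse 3 and at 40 in the other 2. The Ly6C low samples of mice 1 and 2 were thus the ones detected by both strand assays.

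mmu-miR-375, which restrains insulin secretion in islets, was the tissue miRNA detected in the most samples. The Ct was 33.98 and 32.98 in the Ly6C high monocytes of mice 2 and 3, and 33.98 and 31.97 in the Ly6C low samples of mice 1 and 2. It was 36.00, past the limit of 35, in Ly6C low mouse 3 and 40 on the deviating card of Ly6C high mouse 1. A signal was therefore listed in each of the 5 other samples, 4 of them under 35. The log2 difference relative to U6 was 1.89 in mouse 2 and 1.87 in mouse 3, higher in Ly6C high monocytes in both. U6 alone would give an assay without signal 3.89 in mouse 2 and −1.15 in mouse 3. In mouse 2, where miR-375 was under 35 in both samples, the card A assays detected in both had a median difference of 0.89. In mouse 2 the raw Ct ran the other way, earlier in Ly6C low monocytes.

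The exocrine pancreas miRNAs had little signal. mmu-miR-216a had a Ct of 30.99 on the deviating card A of Ly6C high mouse 1 and 40 in the other 5 samples. The card A assay of mmu-miR-217 stayed at 40 in the 6 samples. Its card B assay had a Ct of 34.97 in Ly6C high mouse 3 and of 32.97 in Ly6C low mouse 2, and 40 in the other 4. The 2 assays that bear the name miR-217 thus differed in detection in 2 of 6 samples, and mmu-miR-216b, encoded near miR-216a, had no signal. Card B of Ly6C low mouse 2 had 148 of 375 assays detected (39.5%), the largest number of any card of any sample here. On the same card, the well for the plant miRNA ath-miR159a, which should have no target in mouse RNA, had a Ct of 33.97. The part of this in the miR-217 signal was not tested.

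Mature sequences are shown for members with an entry in the RefSeq table of GRCm38.p6 and for close relatives, because an assay has to tell relatives apart and because relatives share or do not share targets through the seed (bases 2 to 8, in capitals). The assay names do not give the arm, so the arm known as the main one is shown, and it was found for 4 of the 9 names.
mmu-miR-133b-3p: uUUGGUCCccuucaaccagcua
mmu-miR-208a-3p: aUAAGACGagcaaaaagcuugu
mmu-miR-208b-3p: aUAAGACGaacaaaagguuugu
mmu-miR-216a-5p: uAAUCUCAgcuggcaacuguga
mmu-miR-216b-5p: aAAUCUCUgcaggcaaauguga
mmu-miR-217-5p: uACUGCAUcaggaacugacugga

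miR-208a and miR-208b had the same seed and differed by 3 substitutions outside it, G10A, A16G and C18U, counted from the 5′ end with the base of miR-208a first. miR-216a and miR-216b differed by U1A, A8U, U11A and C17A, of which A8U lies in the seed, so they fall in different seed groups. miR-217 shared its seed with none of the others shown. In GRCm38.p6, miR-208a lies at chr14:54949072-54949093 on the minus strand within Myh6, the gene of a cardiac myosin heavy chain, and miR-208b at chr14:54975710-54975731 on the minus strand within Myh7. miR-216a (chr11:28757018-28757039) and miR-217 (chr11:28763761-28763783) both lie on the plus strand within the long noncoding RNA gene Gm40818, their genes 6644 bases apart. miR-216a, with its 1 signal on the deviating card, and the card B assay of miR-217 were detected in no sample in common. miR-133b lies at chr1:20682834-20682855 on the plus strand within the long noncoding RNA gene Lincmd1, 3686 bases from Mir206 by gene ends.

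Each sample had between 1 and 4 of the 10 tissue assays detected. Compared with the share over all 750 assays, the tissue share was higher in Ly6C high mice 1 and 3. It was lower in Ly6C high mouse 2 and in each Ly6C low sample. In the Ly6C high monocytes of mice 1, 2 and 3, 3, 2 and 4 of the 10 assays were detected, and in the Ly6C low samples 2, 3 and 1. Means were 3 and 2, a difference of 1 with overlapping counts (2-sided exact permutation test, p = 0.5, where 3 samples against 3 give 0.1 at the lowest). The tests of counts shuffled samples without regard to the mouse that 2 samples share. The 3 assays of Ly6C high mouse 1 were all on the deviating card. Over all 750 assays, 169, 216 and 177 were detected in Ly6C high and 207, 294 and 146 in Ly6C low samples, or 22.5%, 28.8% and 23.6% against 27.6%, 39.2% and 19.5%. The means over all assays thus ran the other way, with a difference of −28.33 and overlapping counts (exact permutation test, p = 0.7). On card A alone, an alternative chosen after seeing the data, the counts were 3, 2 and 3 in Ly6C high against 2, 2 and 1 in Ly6C low samples (exact permutation test, p = 0.3).

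In mice 2 and 3, most tissue miRNAs had the same detection status in both subsets. In mouse 2, 9 of the 10 assays had the same status in both subsets, with miR-124 and miR-375 detected in both. In mouse 3, the status was the same for 7 of 10, with miR-122 detected in both. In mouse 1, it was the same for 5 of 10, all of them undetected in both samples. Over all 750 assays, 87.5% had the same status in both subsets in mouse 2, 94.3% in mouse 3 and 78.4% in mouse 1. On card A, which held 9 of the 10, these shares were 89.9%, 94.7% and 64.3%. As most assays were undetected throughout, these shares are mainly shares of joint absence, for tissue miRNAs and for all assays.

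Against other lists on card A, tissue miRNAs were seldom detected in the 5 samples without Ly6C high mouse 1. Of their 45 reactions, 10 (22.2%) had a Ct under 35, with a median Ct of 32.99, against 629 of 1875 reactions (33.5%) and a median of 28.96 over all assays. The 12 miRNAs of myeloid and other blood cells were detected in 60 of 60 reactions, with a median Ct of 21.96. As this list is not confined to blood cell miRNAs, its share is not that of blood cell miRNAs alone. Lymphocyte miRNAs were detected in 20 of 20, with a median of 24.97. The red cell, platelet and endothelial miRNAs were detected in 11 of 20 (55.0%), with a median of 30.98, and epithelial ones in 19 of 35 (54.3%), with a median of 29.03. The tissue miRNAs had the lowest share of these lists. In Ly6C high mouse 1, 3 of 9 tissue miRNAs (33.3%) were detected, against 109 of all 375 card A assays (29.1%). There, 6 of 12 on the myeloid and other blood cell list were detected, but not miR-223, miR-142-3p or miR-142-5p. Detection was 2 of 4 for lymphocyte, 0 of 4 for red cell, platelet and endothelial and 3 of 7 for epithelial miRNAs. Of the 9 tissue assays on card A, 2 (22.2%) were detected in this sample and no other, as were 45 of all 375 (12%).

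**Figure D2:**
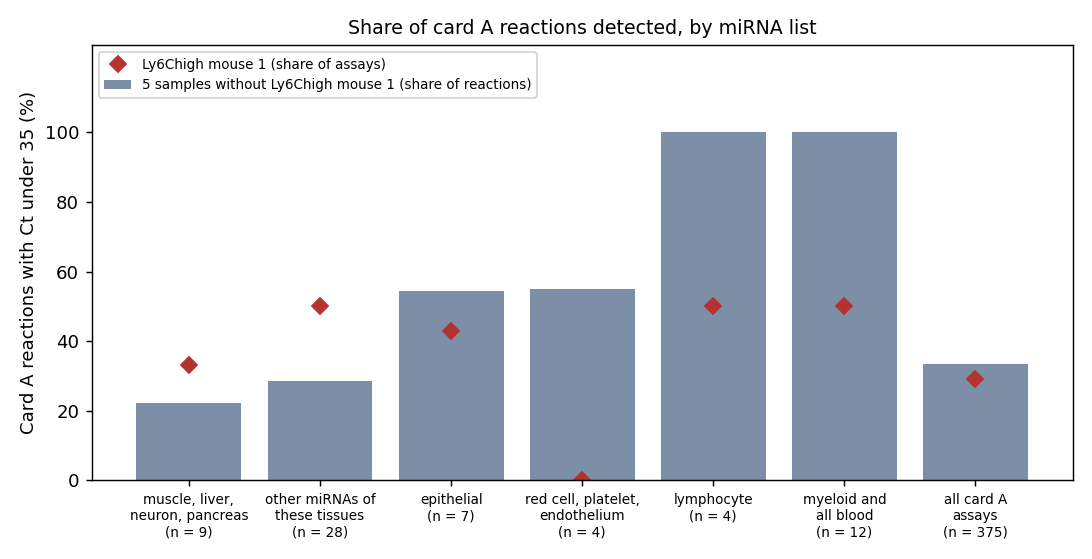
Share of card A reactions with a Ct under 35, in percent, by miRNA list, with the number of assays in each list as n. Bars pool the reactions of the 5 samples without Ly6C high mouse 1, and diamonds give the share of assays in that sample alone. The bar is at 22.2% for the tissue miRNAs. It is at 100% for the list of myeloid and other blood cell miRNAs, whose diamond is at 50.0%. That list also holds miRNAs that are not confined to blood cells.

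Single miRNAs of other cells gave the levels to set beside this. miR-223, the hallmark of myeloid cells, had Ct values of 21.95 and 16.96 in Ly6C high mice 2 and 3, and 18.97, 18.97 and 18.95 in Ly6C low mice 1, 2 and 3. In those mice miR-142-3p, found in all blood cells, was at 23.97 and 20.97 in Ly6C high and at 19.97, 19.97 and 21.98 in Ly6C low samples. Both were at 40 on the deviating card. Where 3 Ly6C high values follow, the first is from that card. miR-146a, a brake on inflammatory signalling, was at 26.98, 24.97 and 25.98 in Ly6C high and at 17.97, 16.96 and 20.95 in Ly6C low samples. The lymphocyte miRNA miR-150 was at 29.98, 23.98 and 24.98 in Ly6C high and at 20.96, 20.97 and 23.98 in Ly6C low samples. These blood cell miRNAs thus came early on the cards of the 5 other samples. The red cell miRNA miR-451 was at 40, 32.97 and 31.96 in Ly6C high and at 30.94, 30.96 and 32.98 in Ly6C low samples. The epithelial miR-200c was at 29.97, 30.03 and 28.01 in Ly6C high and at 26.98, 26.99 and 29.96 in Ly6C low samples. miR-126-3p, a miRNA of endothelium and platelets, was at 40, 30.98 and 28.99 in Ly6C high and at 28.97, 28.99 and 31.97 in Ly6C low samples. Of the other epithelial miRNAs on card A, miR-203 was under 35 in 6 of 6 samples, miR-200b in 5 and miR-141 in 4. For miR-203 and miR-200b, these include the deviating card, at a Ct of 31.99 and 21.98. The card B assay hsa-miR-200b was under 35 in both samples of mouse 1 and of mouse 2, with the lowest values, 23.97 and 19.96, in mouse 2. Other markers of these cells had no signal in any sample, as for miR-486 of red cells and miR-205 and miR-429 of epithelium on card A and hsa-miR-144 of red cells on card B. miR-200a was at 27.97 in Ly6C low mouse 1 and at 40 in the other 5, and hsa-miR-200c on card B was under 35 in none, with a Ct of 35.98 in Ly6C low mouse 3. Some but not all markers of red cells, platelets, endothelium and epithelium were thus detected, and their part in the tissue miRNA signals was not tested.

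A further list held 28 miRNAs known for the same tissues, the retina or other tissues, all on card A. Of their 140 reactions in the 5 samples, 40 (28.6%) were detected, with a median Ct of 31.97. Of these 28, 14 were detected in none of the 5, among them miR-137, miR-153 and miR-219 of neurons and miR-216b of the pancreas, while 4 were detected in all 5. The 4 were miR-128a and miR-138, which are abundant in brain, and miR-192 and miR-194, which are abundant in liver, gut and kidney. Of all 375 card A assays, 198 were detected in none of the 5 samples and 86 in all 5. miR-192 had the lowest Ct of the list in each of the 5 samples, at 30.96 and 28.98 in the Ly6C high monocytes of mice 2 and 3 and at 27.98, 27.97 and 29.95 in the Ly6C low samples. In the same order, miR-194 was at 32.97 and 29.98 in Ly6C high and at 28.97, 28.98 and 30.96 in Ly6C low samples. miR-128a was at 33.98 and 30.97 in Ly6C high and at 30.98, 29.97 and 31.98 in Ly6C low samples. The values of miR-138 were 34.00 and 30.98 in Ly6C high and 31.98, 31.99 and 31.95 in Ly6C low samples. For each of these 4, the latest of the 5 values was that of Ly6C high mouse 2. On the deviating card, 14 of the 28 were detected, and 6 of these in no other sample.

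Besides these 4, 5 more of the 28 had a Ct under 35 in at least 3 samples. Like miR-122, miR-129-3p and miR-9 reached 3 samples only through the deviating card. That card gives the first Ly6C high value of each assay below. miR-184 was at 26.95, 35.97 and 30.96 in Ly6C high and at 30.95, 29.94 and 31.96 in Ly6C low samples. miR-218 was at 40, 35.96 and 33.98 in Ly6C high and at 34.96, 33.96 and 33.98 in Ly6C low samples. Both thus had a signal in each of the 5 samples, late for miR-218. miR-135a was at 40, 35.95 and 32.99 in Ly6C high and at 31.96, 33.97 and 40 in Ly6C low samples. The brain miRNA miR-129-3p was at 32.98, 40 and 32 in Ly6C high and at 40, 32.97 and 40 in Ly6C low samples. miR-9, a miRNA of neurons and their progenitors, was at 26.98, 40 and 33.03 in Ly6C high and at 40, 40 and 33.04 in Ly6C low samples. For miR-9, the samples with a signal were those with miR-122, including the deviating card.

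Of the 10 assays, 3 passed the filter of a Ct under 35 in at least 3 samples and were compared between the subsets among the 201 assays that passed. Of these 3, miR-122 passed only through the deviating card, as it was under 35 in 2 of the other 5 samples. The measure was −ΔCt, in log2 units, where a higher value stands for more miRNA. With limma and a threshold of 0.05 on the adjusted p, 0 of 201 assays (0%) and 0 of the 3 tissue miRNAs differed. Without adjustment, 2 of the 201 (0.995%) and 0 of the 3 had a p under 0.05. In 2 alternative fits 1 tissue miRNA had an unadjusted limma p under 0.05. These were miR-375 with mice 2 and 3 alone and the mouse as a block, and miR-122 with Ly6C low mouse 3 left out. Over all 201 assays, 16 had such a p in the first of these fits (14 higher and 2 lower in Ly6C high monocytes). In the second fit, 3 of the 201 did (3 higher and 0 lower). The 3 values of each subset did not overlap for 11 of the 201 assays (5.47%) and overlapped for all 3 tissue miRNAs. None of the 3 tissue miRNAs thus passed the test between Ly6C high and Ly6C low monocytes, nor were any other assays called.

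For miR-122, mean −ΔCt in Ly6C high monocytes was −10.96 ± 4.52 (SD, n = 3). In Ly6C low monocytes it was −16.84 ± 5.00 (SD, n = 3). The log2 difference was 5.88 with a standard error of 3.46 (adjusted p = 0.985 by limma, and by a 2-sided exact permutation test p = 0.3). The within-mouse differences were 13.88, 3.89 and −0.14 in mice 1, 2 and 3, so 2 of 3 mice were higher in Ly6C high monocytes. The first sets the deviating card against a reaction without signal in Ly6C low mouse 1. The second is the U6 difference alone, as miR-122 had no signal in mouse 2. The Ly6C low mean thus includes the reactions without signal of mice 1 and 2. Leaving out Ly6C high mouse 1 gave 3.56 (standard error 3.46, limma adjusted p = 0.997), and in a fit of mice 2 and 3 alone, blocked by mouse, it was 1.88 (limma adjusted p = 0.83).

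For miR-124, mean −ΔCt in Ly6C high monocytes was −14.96 ± 5.83 (SD, n = 3). In Ly6C low monocytes it was −14.50 ± 3.45 (SD, n = 3). The log2 difference was −0.46 with a standard error of 3.47 (adjusted p = 0.985 by limma, and by a 2-sided exact permutation test p = 0.9). The within-mouse differences were −3.13, 2.90 and −1.15 in mice 1, 2 and 3. The first rests on the undetected reaction on the deviating card and the last is from U6 alone. The sign turned without Ly6C high mouse 1, where the difference was 0.73, and was also positive without Ly6C high mouse 3 (1.67) or Ly6C low mouse 2 (1.18).

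For miR-375, mean −ΔCt in Ly6C high monocytes was −12.95 ± 4.06 (SD, n = 3). In Ly6C low monocytes it was −13.15 ± 1.68 (SD, n = 3). The log2 difference was 0.20 with a standard error of 2.47 (adjusted p = 0.985 by limma, and by a 2-sided exact permutation test p = 1). The within-mouse differences were −3.17, 1.89 and 1.87. The negative one is that of mouse 1, whose Ly6C high value is the undetected reaction on the deviating card. Leaving that sample out gave 2.39 (standard error 1.57, limma adjusted p = 0.965). The sign turned in 4 of the 6 fits with single samples left out, at −1.62 and −0.18 without Ly6C high mouse 2 or 3, and at −0.31 and −0.26 without Ly6C low mouse 1 or 3. In a blocked fit of mice 2 and 3 alone, it was 1.88 (standard error 0.22, limma adjusted p = 0.443), where the median over all 201 assays was 0.43. With raw Ct values in place of ΔCt, it was −1.67, while the median over all assays went from −0.45 to −2.32.

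U6 differed between the samples. Its Ct on card A was 22.66, 24.66 and 20.77 in Ly6C high and 19.80, 20.76 and 21.92 in Ly6C low samples. Other small RNA controls differed more, and by mouse. On card A, snoRNA202 was at 31.92, 22.97 and 40 in Ly6C high and at 30.96, 18.99 and 40 in Ly6C low samples. In the same order, snoRNA135 was at 40, 25.96 and 40 and at 36.00, 21.98 and 40. Both were thus earliest in mouse 2 and without signal in mouse 3, and their part in the tissue miRNA values was not tested. With U6 taken off, an assay at 40 in all 6 samples, such as miR-208, gets a log2 difference of 1.87 on card A without any signal. The 7 tissue assays below the filter were for this reason described by their Ct only.

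Patterns most like those of the detected tissue miRNAs were sought among the other mouse assays of the same card, by the mean absolute difference in Ct over the 6 samples, in which reactions without signal count as alike. The assay nearest to miR-122 was miR-9, at a mean difference of 0.51 cycles, followed by miR-147 at 1.66. The detection pattern of miR-122, which includes the deviating card, was found in 4 of the 375 assays of card A. These were miR-122, miR-9, miR-323-3p and miR-425. Nearest to miR-124 were miR-31 (1.00 cycles) and miR-331-5p (1.34), and its detection pattern was shared by miR-92a and miR-322. Nearest to miR-375 were miR-107 and miR-125a-5p, both at 1.00, and its detection pattern was shared by miR-450a-5p. Shared detection was thus not limited to miRNAs of the same tissue.

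For assays with 1 or 2 signals, likeness is mostly shared absence. miR-133a was nearest to miR-330 (0.01 cycles) and miR-672 (0.16), which were also detected only in Ly6C high mouse 3. Nearest to miR-133b were miR-134 and miR-193, and nearest to miR-216a were miR-376b and miR-207, each at 0.00 and each detected only on the deviating card. The card B assay of miR-217 was nearest to miR-24-2# (0.84) and miR-804 (0.85). A lack of any Ct under 35, as for miR-1, miR-208 and the card A assay of miR-217, was found in 153 of 375 assays of card A (40.8%).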

How the data were processed

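The raw Ct values deposited by the authors are log2 quantities that fall as template rises, and 40 stands for no signal. A further table holds ΔCt, also log2, for which the authors took the U6 Ct of the card off each Ct. The last table holds the authors' own ratios between the subsets within each mouse and was not used. The software that set the Ct values is not given in the sources used here. The labels name only rodent pool A primers, although 2 cards are listed.

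Detection was counted at a Ct under 35. After 18 control wells of 768 were left out, those assays that were under 35 in 3 or more samples went into limma 3.58.1 (lmFit, then eBayes, no block) in R 4.3.3, with Benjamini-Hochberg adjustment over all 201 assays and a threshold of 0.05. The script was tested on simulated data. Exact permutation tests over samples were 2-sided. Other steps ran in Python 3.11.15 with scipy 1.17.1, numpy 2.4.6, pandas 2.3.3 and matplotlib 3.10.9.

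Per the labels, a number shared between subsets marks 1 mouse. Paired this way, samples were compared by their deviations from the subset means, which correlated at 0.32, 0.62 and 0.72 across 201 assays in mice 1, 2 and 3. Members and lists were chosen with earlier results of these data known. Named were all members, the 2 assays nearest to each detected member, the other tissue miRNAs under 35 in at least 3 samples, and 6 comparison miRNAs; other names were added after their values were seen. Sequences and positions are those of RefSeq on GRCm38.p6. Alternatives covered the normalization, filter, floor, block, detection limit and samples left out. The number of arrays limits the precision.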

Additional observations from a re-analysis of the deposited data

Results flagged for a closer look

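A signal was listed where none of the comparisons looked for one. In Ly6C low mouse 2, the card B well for the plant miRNA ath-miR159a had a Ct of 33.97, while the same assay was at 40 in all 6 samples on card A and in 5 of 6 on card B. On the same card, mmu-miR-1-2-AS had a Ct of 26.98, and it was at 29.99 in the Ly6C high sample of the same mouse and at 40 in the other 4. The miR-217 signal at 32.97 is also from this card.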

How the results depend on the processing

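In all 16 alternatives, 0 assays passed a limma adjusted p of 0.05, and the lowest adjusted p was 0.15, with Ly6C high mouse 3 left out. At an unadjusted p under 0.05, the count was 2 (0 higher, 2 lower) and went from 1 to 16 of the assays tested. It was also 0 higher and 2 lower with the block, 0 and 3 with raw Ct, 14 and 2 in the blocked fit of mice 2 and 3 alone, 6 and 3 without a filter, 7 and 2 with undetected reactions left out, and 4 and 1 with the deviating card left out. With the mouse as a block, the difference of miR-122 was 5.88 (adjusted p = 0.949) and the block changed no call. A filter at 32 leaves no tissue miRNA to test. The difference of miR-122 was 1.88 to 8.76 in 15 alternatives (adjusted p 0.486 to 0.999). Each of them keeps the deviating card or the U6 difference of mouse 2, where miR-122 had no signal, so the common sign says nothing about its stability. It was 8.76 without the Ly6C low sample of mouse 3 (adjusted p = 0.986, unadjusted p under 0.05). miR-124 turned positive with a floor of 35 (1.21), undetected reactions left out (4.39), the deviating card left out (0.73) and mouse 1 left out with the block (0.87), and ranged from −3.78 to 1.67 with single samples left out (adjusted p 0.738 to 0.999 over all alternatives). miR-375 turned negative with the mean of assays detected in all samples (−0.04) and raw Ct (−1.67), and ranged from −1.62 to 2.39 with single samples left out (adjusted p 0.443 to 0.999 over all alternatives). By exact permutation, the turned values had p = 0.7 (miR-124, floor of 35) and p = 0.6 (miR-375, raw Ct). The median over all assays moved from −0.45 to −2.32 with raw Ct and to −0.78 with mean centring. With no filter it was 1.87, which is the difference that U6 alone gives an assay without signal on card A. It also turned positive with undetected reactions left out (0.93), the deviating card left out (0.57), a floor of 35 (0.21), and mice 2 and 3 alone with the block (0.43). The same held with Ly6C high mouse 1 (0.63), Ly6C high mouse 3 (0.32) or Ly6C low mouse 2 (0.65) left out. The difference in detected tissue miRNAs was 1 and became 0 at a Ct under 32 (2, 0 and 0 against 0, 2 and 0 detected). It was 0.33 at a Ct under 30, where the 1 detected reaction is on the deviating card; with single samples left out it was 0.5 to 1.5. Where a construction does not show it, the cause was not tested. Signals near 35 limit what can be called detected.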
